A study of Drosophila melanogaster with 69 samples.

Results

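Whole testes of chinmoST and wild-type flies at day 1 of adult life were compared in 6 bulk RNA-seq libraries, 3 of each genotype, which were chosen by their labels for tissue, time and strain from 69 libraries of testes and ovaries. The chinmoST group carries the strain label chinmoST, and its genotype label lists Sod1[X-39], e[1] and the TM3 balancer with Sb[1] and Ser[1] but no chinmo allele. The wild-type group is Oregon R, a laboratory strain that carries none of these labelled alleles. Both groups were kept at 25 °C and received no agent, and each library pooled 50 to 60 pairs of testes. The sample titles give day 0 for these libraries and the other labels day 1, which is used here. The labels describe no crossing of the strains into a shared background, so the chinmoST mutation, the labelled alleles and the rest of the strain background cannot be told apart in these data.

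Chinmo is a zinc-finger transcription factor that maintains the male identity of cyst stem cells (CySCs), the somatic stem cells at the tip of the Drosophila testis. CySCs and germline stem cells surround the hub, a cluster of niche cells that sends JAK-STAT and BMP signals. CySC daughters become cyst cells, which enclose the germ cells through mitosis, meiosis and spermatid elongation. In chinmoST flies Chinmo is lost from CySCs, young testes look normal, and cells of the CySC lineage take on features of ovarian follicle cells with age. The day 1 comparison therefore asks what separates the strains at the start of this series.

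Levels are given as CPM (estimated counts scaled to a common library size with TMM factors), and sums over gene lists as CPM scaled by library size alone. A gene was called where its adjusted p was under 0.05 and its fold at least 1.5 in one edgeR fit of all 36 testis libraries, and ± after a log2 fold change is its SE. The labels do not say whether replicates came from separate cultures, so p-values measure only the spread between these samples. Estimated counts summed to between 75918826 and 127443343 in chinmoST libraries and to between 46210039 and 140586559 in wild-type libraries, so that 3 counts corresponded to 0.0264 to 0.0448 CPM in chinmoST and to 0.0226 to 0.0699 CPM in wild-type. These floors cover counting error only. Correlations of log2(CPM + 1) across genes were 0.976 to 0.998 within chinmoST, 0.991 to 0.997 within wild-type and 0.968 to 0.985 between genotypes. Replicate 3 of chinmoST stood apart from replicates 1 and 2, which correlated best. Its genes over 4000 nucleotides deviated by a median of -0.27 on the log2 scale, and its accessory gland transcripts were several times higher. Results that rest on replicate 3 are given without it as well.

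The chinmo gene itself was not called changed in whole testes at day 1. This gene (FBgn0086758, on 2L from 1651258 to 1704682, forward strand, 6 transcripts and 14 exons in the BDGP6 annotation) had 370, 361 and 225 CPM in chinmoST testes, against 381, 360 and 428 CPM in wild-type testes. Replicates 1 and 2 of chinmoST lay within the wild-type range, and replicate 3 lay below all others. The log2 fold change was -0.29 ± 0.27 (edgeR adjusted p = 0.657). In bulk RNA, fewer cells of a type and less RNA per cell cannot be told apart. None of the 4 genes of the genotype label was called. Sod1, the cytosolic superoxide dismutase, had 64.8, 76.9 and 109 CPM in chinmoST and 86.4, 69.5 and 66.3 CPM in wild-type, and e, the ebony enzyme of cuticle tanning, had 1.84, 1.67 and 3.12 CPM in chinmoST and 3.67, 3.84 and 3.5 CPM in wild-type. The e libraries did not overlap, and its log2 fold change of -0.73 ± 0.24 did not pass (adjusted p = 0.0716), although it did without chinmoST replicate 3 (log2 fold change -1.06, adjusted p = 0.0115). Sb and Ser, a protease and a Notch ligand, had overlapping libraries (adjusted p = 0.482 and 0.821).

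**Figure D1:**
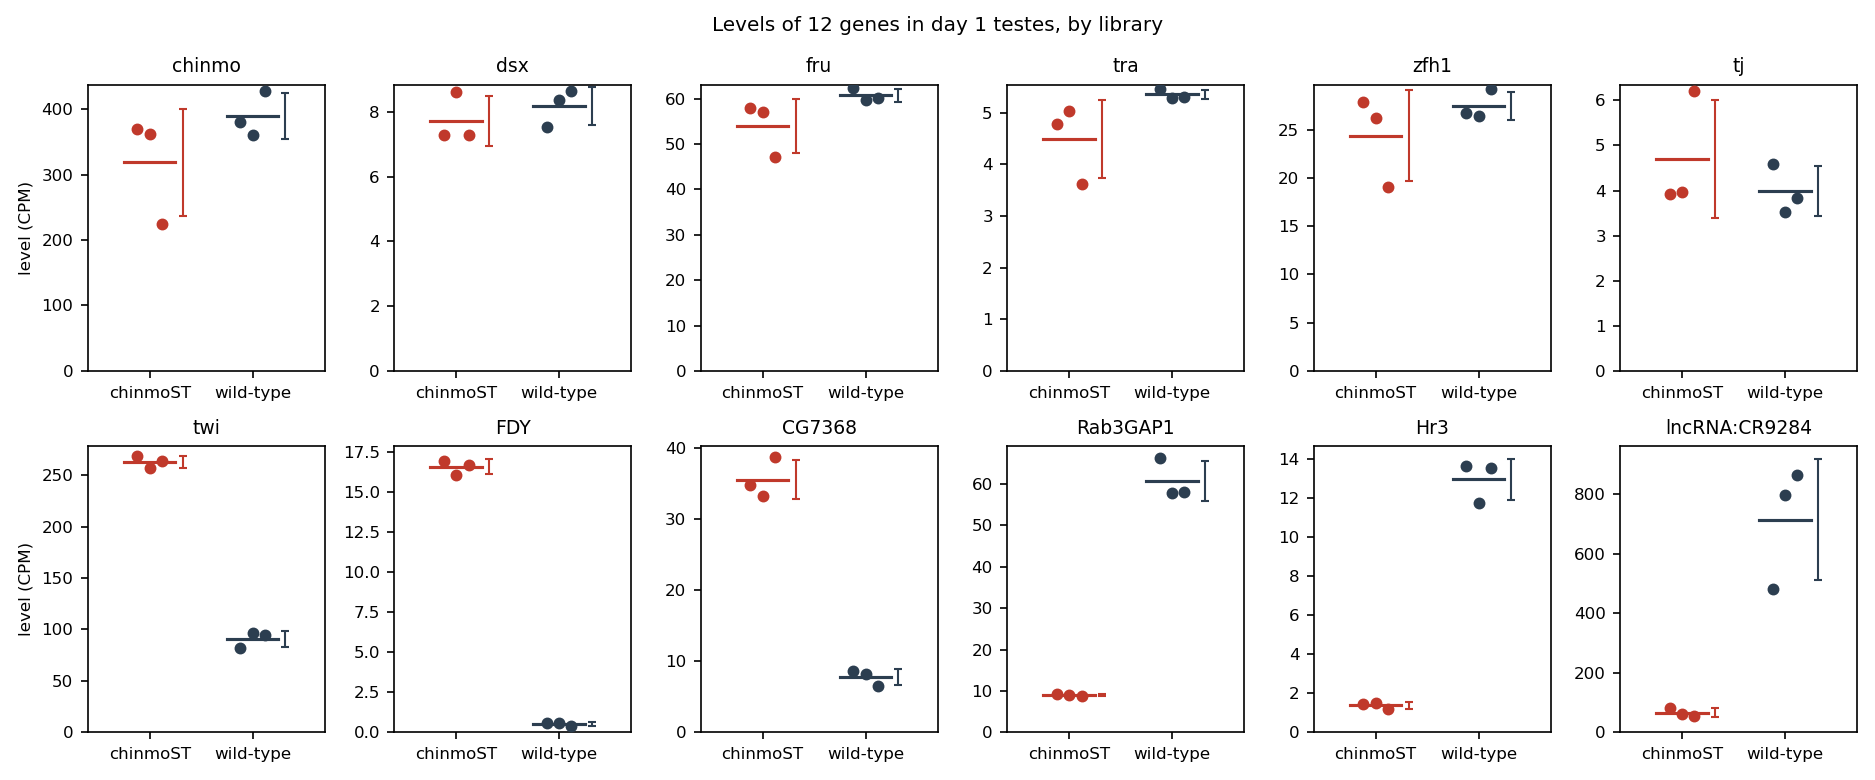
Levels of 12 genes in each day 1 testis library (CPM, linear axes from 0), chinmoST in red and wild-type in dark blue. Points are libraries, horizontal lines are means and bars are SD of 3 libraries. None of chinmo, dsx, fru, tra, zfh1 and tj was called, and in each of the other 6 genes every chinmoST library lies apart from every wild-type library.

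Of 14910 genes tested, 835 were called at day 1 (5.6%), of which 331 were higher in chinmoST (2.22% of genes tested) and 504 were lower (3.38%). Of the 835, 805 had libraries that did not overlap between genotypes, against 31.8% of all genes tested. The falls were larger than the rises. Among the genes that fell, 160 did so by at least 4-fold and 62 by at least 16-fold, with a median log2 fold change of -1.26. Only 21 and 4 of the genes that rose did so by these amounts, and their median was 1.04. The median over all genes was 0.00, and scaling by library size alone gave 243 genes higher and 608 lower in chinmoST. The count of 835 became 1404 when wild-type replicate 1 of days 3, 5, 7 and 9, whose levels trend with gene length, was left out of the fit that estimates the spread. It was 510 without wild-type replicate 2 and 556 without wild-type replicate 3 of day 1.

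**Figure D2:**
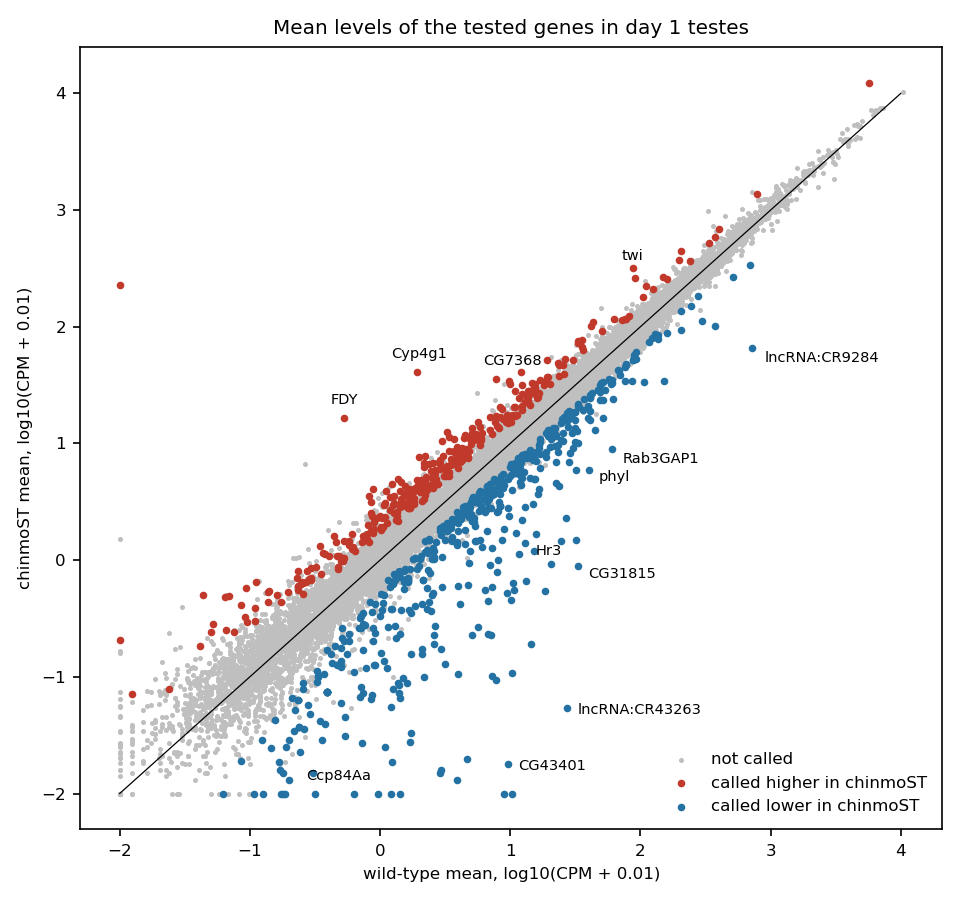
Mean level of each tested gene in chinmoST testes (vertical) against wild-type testes (horizontal) at day 1, as log10(CPM + 0.01), with called genes in red and blue. The 504 genes called lower reach much farther from the diagonal of equal levels than the 331 called higher, and the points on the lower edge are genes at or near 0 in chinmoST.

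None of the 18 genes of the sex determination pathway was called at day 1, when 5.6% of all genes tested were, so that a list of this size is not set apart by its count. In this pathway Sxl controls the splicing of tra, and the product of tra directs the splicing of the transcription factor genes dsx and fru into female forms. The summed level of the list, in CPM scaled by library size, was 445, 453 and 437 in chinmoST testes, against 500, 459 and 471 in wild-type testes, with a median log2 fold change of -0.03 over its genes. dsx had 7.28, 8.61 and 7.28 CPM in chinmoST and 7.54, 8.36 and 8.65 CPM in wild-type (log2 fold change -0.08 ± 0.37, adjusted p = 0.955). fru had 57.9, 57 and 47.2 CPM in chinmoST and 62.3, 59.6 and 60.1 CPM in wild-type (adjusted p = 0.726), and tra had 4.79, 5.04 and 3.62 CPM in chinmoST and 5.46, 5.29 and 5.31 CPM in wild-type (adjusted p = 0.337). The fru and tra libraries did not overlap, but neither gene passed the test. At later days dsx was called higher from day 7 (log2 fold change 1.65), and the difference of its effect at day 1 from the later mean was itself called (-1.24, adjusted p = 0.0149).

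The deposited length of a gene, its mean transcript length weighted by estimated abundance, gives a view of which transcripts were used. For tra it was 862 nucleotides in all 6 testis libraries, against a median of 711 nucleotides in 15 wild-type ovary libraries (701 to 734). Neither strain thus had the shorter ovarian mean length of tra at day 1. For dsx it was 4058, 4081 and 3892 nucleotides in chinmoST and 3844, 4107 and 4134 nucleotides in wild-type, which overlap. For chinmo, whose transcripts were longer in wild-type ovaries (median 10552 nucleotides, 7747 to 12385), it was 5218, 5342 and 6015 nucleotides in chinmoST testes, against 5132, 5131 and 5101 nucleotides in wild-type testes. All 3 chinmoST libraries lay above the wild-type ones, and the farthest was replicate 3. Levels in replicate 3 fell with gene length (correlation -0.257), and a link of this trend to its chinmo length was not tested. For fru it was 3799, 3778 and 4052 nucleotides in chinmoST and 3659, 3696 and 3719 nucleotides in wild-type, with 5478 nucleotides as the median of wild-type ovaries. By an exact permutation test (two-sided) p was 0.1 for chinmo, 0.1 for fru and 0.7 for dsx. With 3 libraries per group 0.1 is the smallest possible p, so this test could not call any length changed. The chinmo and fru lengths did not overlap between genotypes.

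Of the signalling genes of the niche, Socs36E and dpp were called at day 1, counts that do not set these lists apart from the 5.6% called over all genes. Of 14 JAK-STAT genes tested, 1 was called, Socs36E, a feedback inhibitor of the pathway and a target of Stat92E. Socs36E had 19.1, 18.4 and 15.5 CPM in chinmoST testes, against 11.2, 10.2 and 9.58 CPM in wild-type testes (log2 fold change 0.77 ± 0.21, adjusted p = 0.0209). This call was lost in 5 of 15 alternatives, which were without wild-type replicate 2 or 3, without chinmoST replicate 1 or 2, and with TPM (adjusted p up to 0.164). It was also called higher at each later day, up to a log2 fold change of 2.10 at day 9. Of 25 hedgehog, EGFR, BMP and Pvr genes tested, 1 was called, the BMP ligand gene dpp, with 87.3, 91.7 and 97.5 CPM in chinmoST and 51.3, 45 and 56.1 CPM in wild-type (log2 fold change 0.86 ± 0.20, adjusted p = 0.00652, and 0.0562 without wild-type replicate 2). Of 21 insulin pathway genes tested none was called. InR, the insulin receptor, had 31.4, 35.5 and 44.4 CPM in chinmoST and 24.1, 26 and 27.9 CPM in wild-type. Its libraries did not overlap, but its log2 fold change of 0.51 ± 0.25 did not pass (adjusted p = 0.278). ImpL2, Ilp6 and Pvf1, which encode an insulin-binding protein, an insulin-like peptide and a PDGF- and VEGF-related factor, had overlapping libraries, and their log2 fold changes lay between -0.01 and 0.18.

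Somatic markers of the testis were likewise not called, apart from Socs36E, which is also on the list of 6 hub genes. None of 6 CySC genes and none of 10 cyst cell genes was called, lists too short for the 5.6% called over all genes to give 1 call. The CySC list summed to 69.1, 65.2 and 68.7 CPM (scaled by library size) in chinmoST, against 67.6, 68.5 and 75.6 CPM in wild-type. zfh1, a CySC factor, had 27.9, 26.2 and 19 CPM in chinmoST and 26.8, 26.5 and 29.2 CPM in wild-type. tj, a Maf factor of early cyst cells and follicle cells, had 3.93, 3.98 and 6.21 CPM in chinmoST and 4.6, 3.51 and 3.85 CPM in wild-type (adjusted p = 0.737). Its level in chinmoST testes was 7.62 ± 0.693 CPM at day 3 and 107 ± 14.4 CPM at day 11, against 4.41 ± 1.41 and 5.35 ± 0.435 CPM in wild-type testes (SD, n = 3 each), so that the difference in tj followed day 1. Fas3, a membrane adhesion protein of the hub and of follicle cells, was 52.4 ± 6.52 CPM in chinmoST and 63.5 ± 6.03 CPM in wild-type, with overlapping libraries.

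Of 24 follicle cell, eggshell and yolk genes tested, none was called at day 1 (5.6% over all genes). Their summed levels overlapped, with 87.7, 81.3 and 58.5 CPM in chinmoST and 84.3, 68.9 and 71.7 CPM in wild-type, although the median log2 fold change over the list was 0.88. Among genes outside the lists, Timp, an inhibitor of matrix metalloproteinases, and egr, a TNF-family ligand, were called higher in chinmoST, and both were picked after their values were seen. Timp had 22.6, 21.9 and 31.6 CPM in chinmoST, against 15.7, 12.4 and 13.1 CPM in wild-type (log2 fold change 0.88 ± 0.27, adjusted p = 0.0429). At day 7 its log2 fold change was 3.05. The day 1 calls of Timp and egr were each lost in 8 of 15 alternatives, that of Timp on leaving out any 1 of the 6 libraries (adjusted p up to 0.196) and that of egr on leaving out 4 of them in turn (adjusted p up to 0.263 over all alternatives). Without chinmoST replicate 3 their log2 fold changes were 0.70 and 0.57 (adjusted p = 0.196 and 0.216).

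Each library was also placed on a scale from the mean wild-type testis (0) to the mean wild-type ovary (1) of days 3, 5 and 9, over 11427 sex-biased genes. Its value was 0.0049, 0.0018 and 0.0080 in chinmoST testes, against 0.0082, 0.0013 and 0.0038 in wild-type testes. The groups overlapped, and their means differed by 0.00046 (two-sided exact permutation test, p = 0.8, the smallest possible p being 0.1). With TMM-scaled CPM the difference was -0.0123 (exact permutation p = 0.2), so its direction depends on the scaling. The 9 wild-type testis libraries behind the scale and the sex bias included replicate 1 of days 3, 5 and 9, whose levels trend with gene length. Neither was computed without them. Of the genes called higher at day 1 that had a value for sex bias, 9.23% were ovary-biased in wild-type flies and 80% were testis-biased by at least 2-fold. Those called lower were 15.8% ovary-biased and 66.7% testis-biased, and all tested genes were 27.7% ovary-biased and 51.2% testis-biased.

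The strongest falls were of genes that were expressed in wild-type testes and at or near 0 in chinmoST testes. In 11 genes that fell, every chinmoST library had at most 3 counts while every wild-type library had at least 30. lncRNA:CR40465 (2L from 20253816 to 20254449) had 0 counts in all 3 chinmoST libraries, against 9.37, 10.5 and 11.1 CPM in wild-type, which is at least 906-fold lower with 3 counts over the group as the floor. lncRNA:CR44846 likewise had 0 counts in chinmoST and 10.8, 8.15 and 7.69 CPM in wild-type, at least 759-fold lower. CG43401 had 2 counts in all in chinmoST and 10.5, 9.58 and 8.72 CPM in wild-type, a 1261-fold difference with a 95% exact counting interval of 349 to 10419. All 11 genes were called lower on each later day as well, and 7 of them lay on 2L, 3 on 2R and 1 on 3L.

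Noncoding RNAs made up more of the calls than of the genes tested, with 222 of 1804 called (12.3%), against 598 of 12861 protein-coding genes (4.65%). CG31815 had 0.942, 0.927 and 0.749 CPM in chinmoST testes, against 36.5, 33.1 and 29.8 CPM in wild-type testes (log2 fold change -5.24 ± 0.21, adjusted p = 1.33e-16), and it overlaps mtgo on the same strand, which was not called (log2 fold change 0.10, adjusted p = 0.945). CG12017 had 0.52, 0.673 and 0.417 CPM in chinmoST and 18, 18.5 and 19.4 CPM in wild-type (log2 fold change -5.12 ± 0.20, adjusted p = 1.33e-16). Both were higher in wild-type testes than in wild-type ovaries, with log2 differences of ovary minus testis of -7.78 and -12.20. CG45072, CG13229 and ppk19, the last of which encodes a channel subunit of the DEG/ENaC family, completed the 5 falls with the smallest p, with log2 fold changes of -6.33, -4.51 and -4.45. The 15 largest falls among genes of at least 5 CPM also held Nepl6, of the neprilysin family of peptidases, at -4.53, and 9 long noncoding RNAs, of which those other than lncRNA:CR40465 and lncRNA:CR44846 had log2 fold changes of -4.49 (lncRNA:CR45573) to -9.10 (lncRNA:CR43263).

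Among abundant transcripts, lncRNA:CR9284 had 83.2, 60.6 and 54.5 CPM in chinmoST, against 482, 797 and 863 CPM in wild-type (log2 fold change -3.43 ± 0.32, adjusted p = 9.24e-09). Hr3, a nuclear receptor of the ecdysone response, had 1.46, 1.51 and 1.19 CPM in chinmoST and 13.6, 11.7 and 13.5 CPM in wild-type (log2 fold change -3.22 ± 0.27, adjusted p = 8.44e-10). It overlaps CG12912, CG46321 and lncRNA:CR46322 on the same strand, and their part in its reads was not tested. phyl, an adaptor protein for protein degradation in photoreceptor and sensory organ fate, had 5.8, 6.55 and 5.5 CPM in chinmoST and 35.5, 41.8 and 42.9 CPM in wild-type (log2 fold change -2.75 ± 0.28, adjusted p = 5.36e-08). SA1, a subunit of cohesin, had 4.09, 4.13 and 5.46 CPM in chinmoST and 22.5, 22.8 and 21.9 CPM in wild-type (log2 fold change -2.30 ± 0.35, adjusted p = 4.44e-05). lncRNA:CR9284, Hr3, phyl and SA1 were picked after their values were seen, and in each the strains lay far apart.

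Fewer genes rose strongly, and several of them are Y-linked. FDY, a Y-linked protein-coding gene that arose from a copy of the autosomal gene vig2 (Y from 3022289 to 3024024), had 17, 16.1 and 16.7 CPM in chinmoST testes, against 0.596, 0.581 and 0.373 CPM in wild-type testes (log2 fold change 4.98 ± 0.64, adjusted p = 2.79e-06). vig2 itself had 124, 124 and 135 CPM in chinmoST and 134, 145 and 137 CPM in wild-type and was not called (adjusted p = 0.692). Reads that match both copies could be divided between them, so the level of FDY is uncertain. It was the only one of 11 tested Y-linked fertility genes to be called. Of all 67 Y-linked genes tested, 7 were called, 6 of them higher, against 5.6% called and 2.22% called higher over all genes.

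Other Y-linked rises were of repeated gene copies. CG45765 had 355, 311 and 286 CPM in chinmoST and 87.4, 78.2 and 96.7 CPM in wild-type (log2 fold change 1.86 ± 0.26, adjusted p = 1.25e-05), and CG45764 had 407, 459 and 484 CPM in chinmoST and 206, 204 and 208 CPM in wild-type. Mst77Y-13 and Mst77Y-7, Y-linked copies of the sperm chromatin gene Mst77F, had log2 fold changes of 1.81 and 1.18, while Mst77F on 3L was not called (2185 ± 38.1 CPM in chinmoST and 1822 ± 265 CPM in wild-type, adjusted p = 0.589). Counting among such copies is uncertain. The largest difference of all was in 18SrRNA:CR41548, a ribosomal RNA copy on the rDNA scaffold, with 193, 248 and 246 CPM in chinmoST and 0 counts in all 3 wild-type libraries. It was at least 17066-fold higher over the group floor, and as a repeated gene in poly(A)-selected RNA it is uncertain too. Its call was lost without wild-type replicate 2 and with the replicate block (adjusted p up to 0.0653).

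Among the rises outside the Y was twi, which encodes Twist, the bHLH factor of mesoderm. It had 269, 257 and 263 CPM in chinmoST testes, against 82.2, 96.7 and 94.3 CPM in wild-type testes (log2 fold change 1.53 ± 0.18, adjusted p = 5.46e-07). This gene too was picked after its values were seen. The twi locus overlaps CG9897, CG9896 and CG42741 on the opposite strand and asRNA:CR42742 on the same strand. Reads of these genes may have been counted with twi, which was not tested. CG7368 had 34.8, 33.3 and 38.7 CPM in chinmoST and 8.6, 8.27 and 6.48 CPM in wild-type (log2 fold change 2.19 ± 0.21, adjusted p = 2.43e-08). It overlaps CG46394 and lncRNA:CR46414 on the same strand and CG14137 on the opposite strand, with the same uncertainty. CG10764 and CG6321 had the smallest p together with CG7368 and the Mst77Y copies, at log2 fold changes of 1.44 and 0.84. Gr93d, a gustatory receptor gene, dsb, of the CD36 scavenger receptor family, and CG9294 and CG43175 rose by log2 fold changes of 1.59 to 1.77. lncRNA:CR43882 and asRNA:CR45832 both rose by 1.82, and the first lost its call on leaving out any 1 of the 6 libraries, with library size alone and with the replicate block (adjusted p up to 0.16). asRNA:CR45832 lies opposite to Mp, and reads of the 2 strands may have been counted together.

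In some rises chinmoST replicate 3 stood far above the other libraries. TwdlT, a cuticle protein gene, had 2.29, 2.24 and 18.4 CPM in chinmoST and 1.69, 1.99 and 2.24 CPM in wild-type, and its log2 fold change of 1.96 became 0.20 without replicate 3 (adjusted p = 0.896). Cyp4g1, an enzyme of hydrocarbon synthesis in oenocytes, had 1.21, 1.12 and 120 CPM in chinmoST and 2.48, 2.36 and 0.886 CPM in wild-type, and without replicate 3 its log2 fold change of 4.40 turned to -0.73 (adjusted p = 0.86). Hsp70Bb, 1 of several nearly identical Hsp70 copies, had 16, 13.5 and 66.6 CPM in chinmoST and 13.3, 9.11 and 7.64 CPM in wild-type. lncRNA:Hsromega, a noncoding RNA of the heat shock response, had 14.7, 17.4 and 53 CPM in chinmoST and 13.2, 13.7 and 15.2 CPM in wild-type. Both lost their calls without replicate 3 (adjusted p = 0.541 and 0.747). They were the only 2 called of 21 heat shock genes tested, when 5.6% of all genes tested were called and 2.22% were called higher. All 4 of these genes also lost their calls without wild-type replicate 2 and without wild-type replicate 3. In the libraries of later ages, TwdlT and Hsp70Bb were called higher in chinmoST on every day, with log2 fold changes of 3.25 and 1.76 at day 11. TwdlT was also called higher in ovaries (log2 fold change 1.33), and lncRNA:Hsromega was called higher from day 7.

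Markers of tissues beside the testis moved with this library. The accessory gland list of 23 genes summed to 302, 310 and 1818 CPM (scaled by library size) in chinmoST, against 590, 613 and 772 CPM in wild-type, and the ejaculatory duct and bulb list to 20.8, 21.3 and 230 CPM in chinmoST, against 68.8, 181 and 64.7 CPM in wild-type. Replicates 1 and 2 of chinmoST were thus below, and replicate 3 above, every wild-type library in both lists. No gene was called among the 22 accessory gland genes and the 9 duct and bulb genes tested. Against 5.6% called over all genes, lists of this size are not set apart by that count. None of their genes was at 0 in all 6 libraries. The fat body list summed to 97, 90.8 and 263 CPM in chinmoST and 114, 113 and 104 CPM in wild-type. The part of these tissues in the calls was not tested beyond leaving out replicate 3, without which 749 genes were called, 603 of them among the 835.

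**Figure D3:**
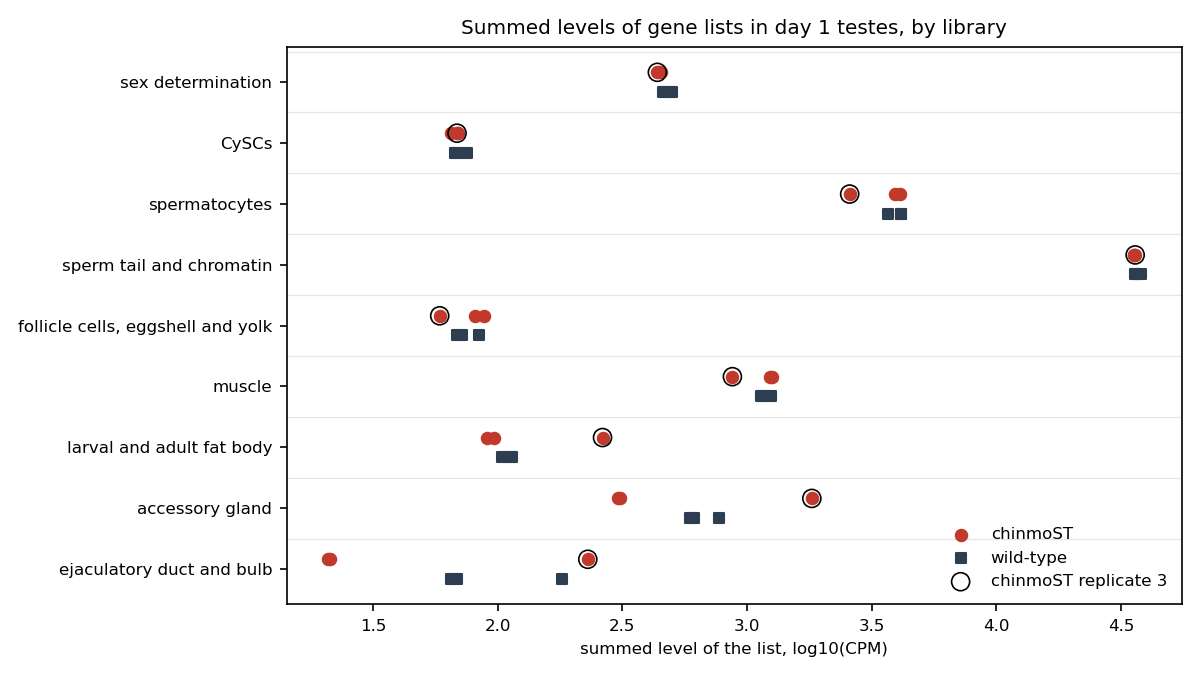
Summed levels of 9 gene lists in each day 1 testis library, as log10 of CPM scaled by library size, with chinmoST as red circles above wild-type as dark squares and chinmoST replicate 3 ringed. Sex determination, CySC and sperm lists lie close together in the 6 libraries, and the accessory gland, ejaculatory duct and fat body lists are highest in replicate 3, at 1818, 230 and 263 CPM.

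Counts of called germline genes were small, and lists of this size are not set apart by them from the 5.6% called over all genes. Of 6 genes of germline stem cells and spermatogonia none was called, and their sum was 123, 118 and 109 CPM (scaled by library size) in chinmoST, against 154, 148 and 140 CPM in wild-type, which did not overlap. Of 19 spermatocyte genes 1 was called, kmg, a zinc-finger factor that keeps unused promoters silent in spermatocytes, with 32.8, 29.8 and 20.5 CPM in chinmoST and 51.3, 48.4 and 47.8 CPM in wild-type (log2 fold change -0.83 ± 0.19, adjusted p = 0.00494). Of 15 spermatid genes none was called. Of 25 genes of the sperm tail and sperm chromatin 1 was called, Mst84Db, a sperm tail protein, with 80.9, 93.3 and 161 CPM in chinmoST and 152, 441 and 298 CPM in wild-type. Its libraries overlapped (log2 fold change -1.41 ± 0.33, adjusted p = 0.00672), and the call was lost in 4 of 15 alternatives, among them without wild-type replicate 2 and without chinmoST replicate 1 or 2 (adjusted p up to 0.104). The spermatocyte list summed to 4121, 3932 and 2578 CPM in chinmoST and 4144, 3664 and 4143 CPM in wild-type, with replicate 3 of chinmoST lowest. The spermatid list summed to 4716, 4688 and 4711 CPM in chinmoST and 4679, 4921 and 4658 CPM in wild-type, which overlap.

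Of 28 piRNA pathway genes tested, 1 was called (against 5.6% of all genes), Gasz, a protein of the outer mitochondrial membrane that is needed to make piRNAs. It had 7.89, 7.59 and 5.82 CPM in chinmoST testes, against 15.6, 16.2 and 15.2 CPM in wild-type testes (log2 fold change -1.15 ± 0.25, adjusted p = 0.00362). Its later log2 fold changes were -1.03 at day 3 and 0.31 at day 11, and the difference of the day 1 effect from the later mean was called (-0.89, adjusted p = 0.00945). No gene was called among 13 mitochondrial genome genes, 15 ribosomal proteins (testis or germline copies among them), 17 histone and replication genes, 12 muscle genes and 15 superoxide and peroxide enzymes, lists in which that share would give 1 call or fewer.

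Detoxification genes differed in both directions. Of 39 tested, 3 were called higher and 2 lower, against 2.22% and 3.38% of all genes, and without chinmoST replicate 3, 1 was called higher and 6 lower. Cyp6a2, a cytochrome P450 of insecticide metabolism, had 0.0264, 0 and 0 CPM in chinmoST, against 0.782, 1.44 and 1.47 CPM in wild-type, a 113-fold difference with a 95% exact counting interval of 38.2 to 550. Cyp28d1, another P450, moved the other way, with 12.2, 11.4 and 14 CPM in chinmoST and 3.58, 3.13 and 3.1 CPM in wild-type (log2 fold change 1.94 ± 0.29, adjusted p = 3.67e-05). Both were called in the same direction at all later days in testes and in ovaries. GstE5, a glutathione transferase, was lower in chinmoST in testes at day 1 (log2 fold change -1.42, adjusted p up to 0.0685 without wild-type replicate 2 or 3 or chinmoST replicate 2) and in ovaries (-2.66). Cyp4e3 and Cyp6a9 were called higher, and their calls were lost in 9 and 7 of 15 alternatives. Without chinmoST replicate 3 their log2 fold changes were 1.14 and 0.41 (adjusted p = 0.248 and 0.171).

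Small numbers of genes of other tissues fell, when 3.38% of all genes tested were called lower and 5.6% were called in either direction. Of 9 cuticle genes tested 2 were called lower, Ccp84Aa, with 0 counts in chinmoST and 1.62, 0.694 and 0.536 CPM in wild-type (at least 76.9-fold lower), and Cpr76Bd, at a log2 fold change of -2.50. The fat body list held 2 genes called lower and 1 called higher among 14 tested, and the higher one, Cyp4g1, lost its call without chinmoST replicate 3. Lsp1beta and Lsp2, storage proteins of the larval fat body, were the lower ones, with log2 fold changes of -2.31 and -1.10. The call of Lsp2 was lost without chinmoST replicate 3, without wild-type replicate 1 and with only day 1 libraries (adjusted p up to 0.12). Lsp1beta had 0.546, 0.269 and 0.209 CPM in chinmoST and 2.18, 1.49 and 1.47 CPM in wild-type at day 1, and at day 3 it was at 0.111 ± 0.0349 CPM in chinmoST and 0.137 ± 0.091 CPM in wild-type (SD, n = 3 each). Ppn, an extracellular matrix protein made by hemocytes, was at 2.57 ± 1.11 CPM in chinmoST and 7.86 ± 2.43 CPM in wild-type at day 1 (adjusted p = 0.0426, and up to 0.296 in the 5 of 15 alternatives that lost the call, without wild-type replicate 2 or 3, without chinmoST replicate 1 or 2, and with TPM), and at 49.2 ± 6.28 CPM in chinmoST and 22.4 ± 14.3 CPM in wild-type at day 7 (SD, n = 3 each). Of 26 antimicrobial peptide genes 1 was called, Drsl3, which had 2 counts in all in chinmoST and lost its call in 4 of 15 alternatives, without chinmoST replicate 3 among them (adjusted p = 0.0887).

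Called genes were spread unevenly over the chromosomes. On the X, 27 of 2219 tested genes were called (1.22%), against 793 of 12423 on chromosomes 2 and 3 (6.38%). By arm the share was 7.98% on 2L, 6.38% on 2R, 6.16% on 3L and 5.26% on 3R, and 2 of 101 genes were called on chromosome 4. The X had the lower share at every level of expression, from 0.376% against 1.41% among genes of at least 100 CPM to 2.64% against 11.3% among genes of 1 to 5 CPM. It was also lower under each of 16 settings of the analysis, from 0.13 to 0.33 times the share of chromosomes 2 and 3. Among windows of 1 Mb with at least 20 tested genes, 1 of 96 on the arms of chromosomes 2 and 3 held no call, as did 8 of 23 on the X. Of the 11 genes that were near 0 in chinmoST only, none was X-linked.

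The lower share on the X was also seen at day 3 but not from day 7 on. The share of X-linked genes called over days 3, 5, 7, 9 and 11 was 15.1%, 27.9%, 55.3%, 63.1% and 67.2%, and on chromosomes 2 and 3 it was 19.8%, 27.9%, 49.8%, 57.6% and 61.2%. The same order held without wild-type replicate 1 of days 3, 5, 7 and 9. In ovaries, over all days, 27.7% of X-linked genes were called, within the range of the arms of chromosomes 2 and 3 (26.4% to 29.7%).

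**Figure D4:**
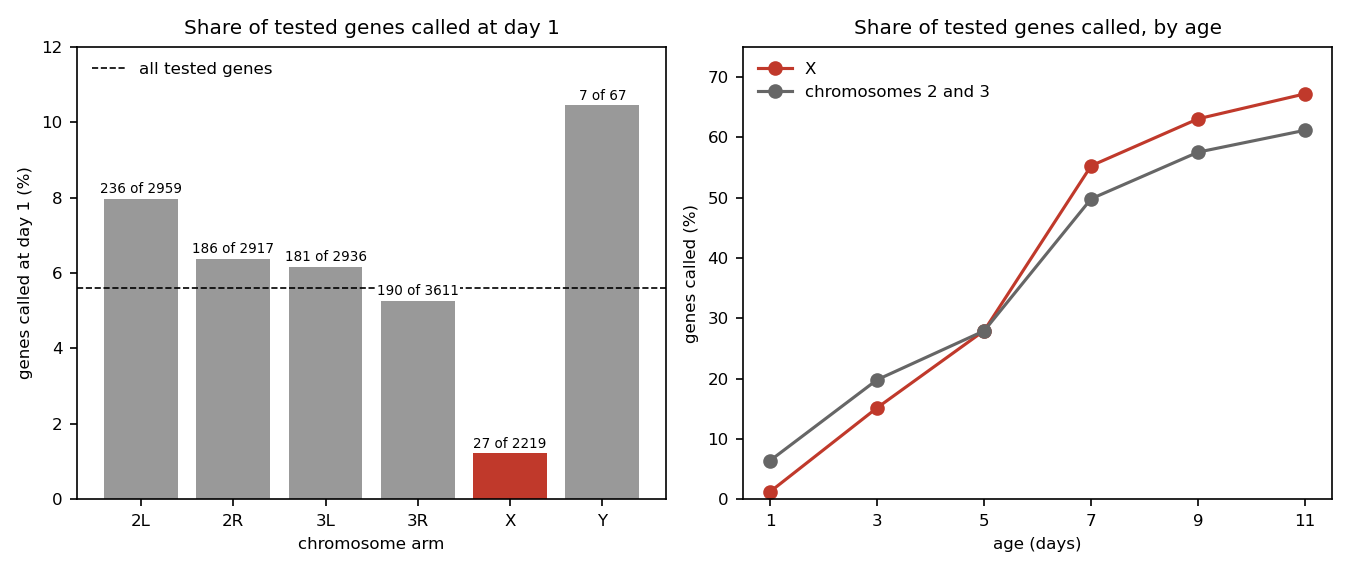
Left, share of tested genes called at day 1 (%) on each chromosome arm, with the number called of the number tested and the share over all genes (5.6%) as a dashed line. Right, share called by age on the X and on chromosomes 2 and 3 together. The X stands at 1.22% at day 1 and at 67.2% at day 11, and crosses the autosomes near day 5.

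The surroundings of chinmo were examined because the lesion of chinmoST is presumed to be regulatory. Within 500 kb on either side, 13 of 125 tested genes were called (10.4%), 5 higher and 8 lower, against 7.98% over 2L, and other windows of 2L reached 14.3%. The count was 7 of 126 without chinmoST replicate 2. Rab3GAP1, the catalytic subunit of a Rab3 GTPase-activating complex, lies from 1594822 to 1611157, upstream of chinmo on the opposite strand, and overlaps haf. It had 9.26, 9.01 and 8.78 CPM in chinmoST, against 66.3, 57.7 and 58 CPM in wild-type (log2 fold change -2.75 ± 0.24, adjusted p = 1.83e-09). Its neighbour CG14352 (1611410 to 1612576) had 1.43, 1.42 and 1.5 CPM in chinmoST and 3.31, 3.53 and 3.78 CPM in wild-type (log2 fold change -1.29 ± 0.23). On the other side, frtz, a planar polarity gene beyond the 3′ end of chinmo (1711302 to 1715851), had 2.69, 2.72 and 3.74 CPM in chinmoST and 5.47, 5.45 and 6.41 CPM in wild-type (log2 fold change -0.92 ± 0.22, not called without chinmoST replicate 1 or 2, adjusted p up to 0.0549).

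Farther away in this region, CG43401 and lncRNA:CR43263 were nearly absent from chinmoST. lncRNA:CR43263 had 0.0881, 0.0448 and 0 CPM in chinmoST and 28.7, 24.5 and 28.5 CPM in wild-type (log2 fold change -9.10 ± 0.48, adjusted p = 4.86e-14). Gr22c, a gustatory receptor gene, and lncRNA:CR45346 had log2 fold changes of -3.93 and -3.81, and CG15362 had a log2 fold change of -0.72 (adjusted p = 0.0385). The 5 rises were of Der-1, which encodes Derlin-1 of endoplasmic reticulum protein degradation, CG31928 and 3 long noncoding RNAs. Der-1 had 250, 262 and 255 CPM in chinmoST and 129, 182 and 169 CPM in wild-type (log2 fold change 0.68 ± 0.18, adjusted p = 0.0185). lncRNA:CR44603, lncRNA:CR44066 and lncRNA:CR43751 had log2 fold changes of 0.91, 1.19 and 1.38. On leaving out 1 library, Der-1, CG31928, CG15362, lncRNA:CR44603 and lncRNA:CR43751 each lost their call in at least 2 cases.

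The genes called at day 1 were followed into separate libraries of later days, at which more genes were called in all (19.1%, 27.8%, 50.6%, 58.3% and 62.1% of genes tested on days 3, 5, 7, 9 and 11). Of the 504 genes called lower, 434 were called lower at day 3 as well (86.1%, against 12.6% of all genes tested), 366 at day 7 and 323 at day 11 (64.1%, against 29.9%), and 279 were called lower on all 5 later days. Of the 331 genes called higher, 195 were called higher at day 3 (58.9%, against 6.59% of all genes tested), 116 at day 7 and 83 at day 11 (25.1%, against 32.1%), and 54 were called higher on all 5 later days. The median log2 fold change of the genes that fell was -1.51 at day 3 and -1.55 at day 11. The median of the genes that rose declined with age, being 0.82 (day 3), 0.54 (day 5), 0.42 (day 7), 0.02 (day 9) and -0.06 (day 11). At day 9, 86 of these genes were called higher (26%, against 30.3% of all genes tested), and at day 11, 65 of them were called lower. The effect at day 1 differed from the mean later effect in 390 of the 835 genes (46.7%, against 41.4% of all genes tested), a count that rests on the same day 1 libraries that chose the genes. Without wild-type replicate 1 of days 3, 5, 7 and 9, an alternative chosen after seeing the data, 330 genes in place of 333 were called in 1 direction throughout.

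**Figure D5:**
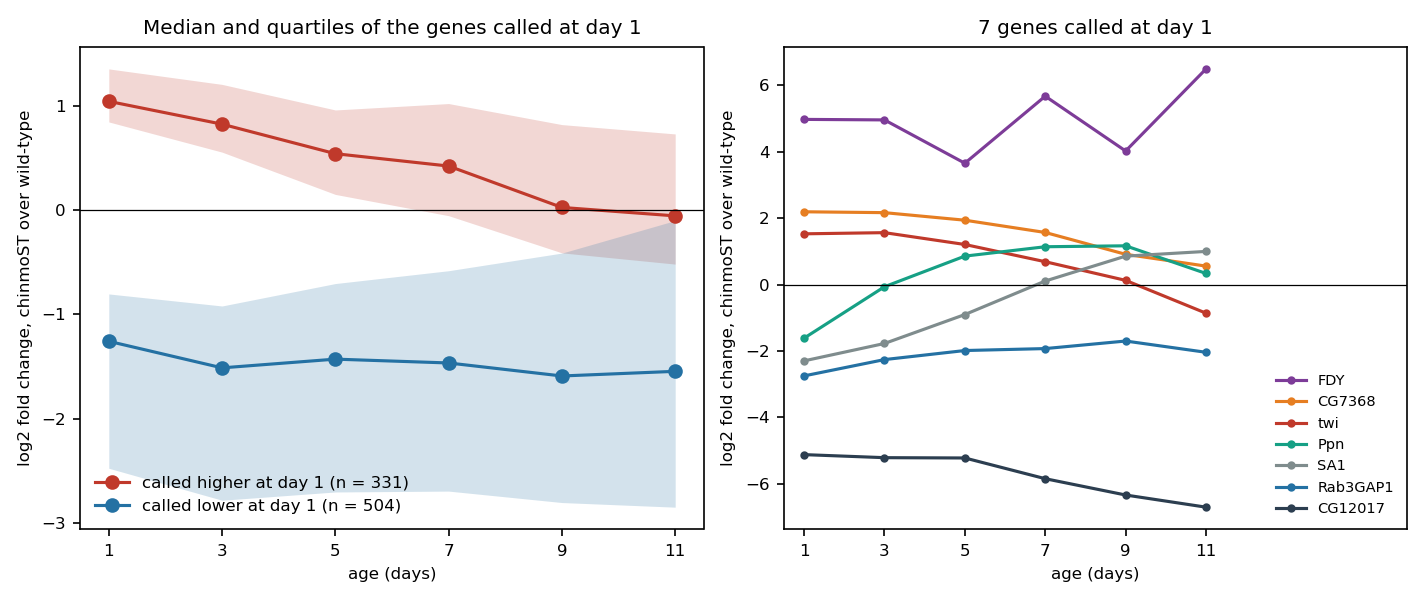
Log2 fold change of chinmoST over wild-type by age. Left, median (line) and quartiles (band) of the 331 genes called higher and the 504 called lower at day 1, and right, 7 genes called at day 1. The median of the rises declines to -0.06 at day 11 while that of the falls stays near -1.5, and twi and SA1 cross 0.

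The rise of twi did not last. Its mean level in chinmoST testes over days 1, 3, 5, 7, 9 and 11 was 263, 294, 249, 153, 97.2 and 47.7 CPM, while in wild-type testes it stayed between 86.7 and 108 CPM. Its log2 fold change was 1.56 at day 3 and -0.86 at day 11, and the difference of its day 1 effect from the later mean was 0.98 (adjusted p = 0.00022). CG7368 also declined but stayed above wild-type, at 35.6 ± 2.79 CPM in chinmoST and 7.78 ± 1.14 CPM in wild-type at day 1, and at 13 ± 1.42 CPM in chinmoST and 8.87 ± 0.155 CPM in wild-type at day 11. The Y-linked CG45765 and CG45764 also declined, with log2 fold changes of 0.26 and -1.18 at day 11.

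Other genes were lower in chinmoST at day 1 and higher later. SA1 was at 4.56 ± 0.784 CPM in chinmoST and 22.4 ± 0.492 CPM in wild-type at day 1, and at 43.1 ± 10.5 CPM in chinmoST and 21.6 ± 0.393 CPM in wild-type at day 11 (SD, n = 3 each; difference of day 1 from the later mean -2.15, adjusted p = 6.8e-05). Dgat2, a diacylglycerol acyltransferase, and Obp83ef, an odorant-binding protein, were each below 0.6 CPM in every day 1 library and had log2 fold changes of -1.94 and -1.67 at day 1, and of 2.27 and 1.07 at day 11. The day 1 call of Dgat2 was lost in 3 of 15 alternatives (adjusted p up to 0.0595). That of Obp83ef was lost in 4 of 15, among them without chinmoST replicate 3 (adjusted p = 0.0683). frtz was called lower at day 1 and higher at day 11 (log2 fold change 0.85).

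Of the 331 genes called higher at day 1, 173 were tested in ovaries and 66 were called higher there, when 14.3% of all genes tested in ovaries were. Of the 504 called lower, 311 were tested in ovaries and 101 were called lower there, against 13.8% of all. Those called in 1 direction at all 6 ages and in ovaries were 24 higher and 33 lower in chinmoST. Beside Cyp6a2 and Cyp28d1, they included lncRNA:CR44994 and Ada1-1, a gene of the SAGA coactivator Ada1 family, which were nearly absent from chinmoST testes (1 and 3 counts in all) and had log2 fold changes of -6.95 and -9.40 in ovaries. CR40190, a pseudogene, had log2 fold changes of -4.71 in day 1 testes and -10.29 in ovaries. CG6602 was higher in both, at 1.69 and 2.16, with an adjusted p of 0.0501 in testes without wild-type replicate 2. The Y-linked FDY remained higher in chinmoST testes on all later days, at 49.4 ± 3.93 CPM in chinmoST and 0.544 ± 0.0369 CPM in wild-type at day 11. CG31815 was lower at every age in testes, yet in ovaries it was higher in chinmoST, with a log2 fold change of 1.99. Wild-type ovaries had far less of it than wild-type testes (log2 difference -7.78), so its ovary change was between low levels.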

How the data were processed

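Per the labels, poly(A) RNA of whole testes was sequenced on a DNBSEQ instrument with 100 bp paired-end reads, and the submitters' processing notes name FastQC 0.11.9, Trim Galore 0.6.4, Bowtie2, RSEM and the build dm6, while strandedness is not given in the sources used here. The authors' RSEM tables hold, for 17807 genes per library, expected counts (estimated counts, which divide reads shared by gene copies). The deposited TPM values, normalised by the authors for length and depth, and the deposited mean transcript lengths were used only where named, and the FPKM columns were not used.

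Expected counts were rounded and fitted with the edgeR 4.0.16 quasi-likelihood test (R 4.3.3) over all 36 testis libraries with filterByExpr and TMM scaling, with Benjamini-Hochberg adjustment over 14910 genes. Calls needed an adjusted p under 0.05 and a fold of at least 1.5. Library totals lay between 46210039 and 140586559 estimated counts in the 6 day 1 libraries and between 32462409 and 181988645 over all libraries of the series, and 3 counts over a group served as the floor for genes at 0. Counting intervals cover counting error only. Gene positions came from the Ensembl BDGP6 annotation, which held 17710 of the IDs, and 496 of 506 gene list entries were matched. Several named genes overlap other annotated genes, and how shared reads were divided among them was not tested. The members and lists were chosen with earlier results of these data known.

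Named genes were chinmo and the genes of the genotype label, the 15 largest rises and 15 largest falls among called genes whose libraries did not overlap and whose higher genotype averaged at least 5 CPM, the 5 smallest p in each direction, called members of the lists, genes of the chinmo pathway, called genes within 500 kb of chinmo, genes called alike at all ages and in ovaries, and genes whose day 1 effect differed most from later days. Genes picked after their values were seen are twi, Hr3, phyl, SA1, lncRNA:CR9284, Timp, egr, vig2, Mst77F and CG45764. The alternatives were DESeq2 1.42.0, limma 3.58.1 on log2(TPM + 1), scaling, filter, threshold, gene length, replicate block, day 1 libraries alone, and leaving out libraries. The calling script was tested on simulated data.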

Additional observations from a re-analysis of the deposited data

Results flagged for a closer look

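The effect of genotype at day 1 differed from its mean over days 3 to 11 in 390 genes called at day 1. This was by the edgeR test of the difference itself, and was 46.7% of the 835 called genes, against 41.4% of all genes tested. Among genes named above it differed in 45, some of which were named because their difference was among the largest. The day 1 libraries that chose the called genes also enter this difference. In the values that follow, the difference is the log2 fold change at day 1 minus the mean later log2 fold change.

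Among genes whose day 1 effect was the lower one, the differences were -3.40 for Lsp1beta, -2.91 for Dgat2, -2.86 for Obp83ef, -2.30 for Ppn, -2.21 for tj, -2.15 for SA1, -1.83 for e, -1.33 for Timp, -1.30 for egr and -1.28 for frtz. They were -1.24 for dsx, -1.07 for Nepl6, -0.94 for Cyp6a9, -0.89 for Fas3, -0.89 for Gasz, -0.87 for InR, -0.86 for Ilp6, -0.80 for vig2, -0.77 for Rab3GAP1, -0.62 for tra and -0.62 for Socs36E.

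Among genes whose day 1 effect was the higher one, the differences were 0.66 for Mst77Y-13, 0.70 for Sb, 0.74 for CG12017, 0.76 for CG7368, 0.78 for Der-1, 0.85 for lncRNA:CR44066, 0.89 for CG15362, 0.92 for Mst77Y-7, 0.95 for Ser, 0.96 for Cpr76Bd, 0.97 for CG43175 and 0.98 for twi. They were 1.01 for Gr22c, 1.05 for CG45764, 1.07 for lncRNA:CR44603, 1.09 for Mst77F, 1.11 for Gr93d, 1.15 for CG45765, 1.24 for dsb, 1.47 for lncRNA:CR45346, 1.501 for asRNA:CR45832, 1.64 for lncRNA:CR43882, 1.91 for lncRNA:CR43263 and 1.99 for CG45072.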

How the results depend on the processing

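The 835 day 1 calls became 1404 without wild-type replicate 1 of days 3, 5, 7 and 9, of which 826 were shared. Leaving out 1 day 1 library gave 510 (without wild-type replicate 2) to 775 (without wild-type replicate 1). The other 8 alternatives gave 667 to 1071 calls, and the share of calls that were higher in chinmoST, 39.6% in the main analysis, was 28.6% with library size alone and 28.9% with TPM. Same-numbered libraries of the 2 genotypes deviated with correlations of 0.16, -0.26 and 0.01, which show no pairing by number. With 3 libraries per group, such values cannot exclude that same-numbered samples shared a preparation. With the replicate block 727 genes were called, of which 665 were among the 835. The X-linked share of 1.22% was 3.23% without wild-type replicate 1 of days 3, 5, 7 and 9 and 2.07% with gene length corrected, and 0.535% to 1.87% on leaving out 1 library. The share on chromosomes 2 and 3 (6.38%) was 7.60% by adjusted p alone, 5.46% with no filter, 5.60% with the replicate block, 7.14% with only day 1 libraries, 10.5% without wild-type replicate 1 of days 3, 5, 7 and 9, 8.12% with gene length corrected, 5.11% with TPM, 7.44% with DESeq2 and 3.89% to 5.73% on leaving out 1 library. The share near chinmo was 17.6% without wild-type replicate 1 of days 3, 5, 7 and 9 and 5.56% to 12.7% on leaving out 1 library. The place on the testis-to-ovary scale reversed to -0.0123 with TMM-scaled CPM and spanned -0.0011 to 0.00236 on leaving out 1 library. Of 85 named genes that were called, 53 were called in all 15 alternatives, and the log2 fold change of Cyp4g1 spanned -0.73 to 4.97 on leaving out 1 library. The cause of these changes was not tested. Genes below the floor of 3 counts, 0.0226 to 0.0699 CPM per library, were beyond the depth.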

Other observations

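Wild-type replicate 1 differed from the other wild-type testes at some later days in genes that separate the strains at day 1. 18SrRNA:CR41548, with 0 counts in every wild-type testis library of days 1, 7 and 11, had 135.9 CPM (14338 counts) in replicate 1 of day 5, 65.1 CPM (9624 counts) in replicate 1 of day 9 and 8 counts in replicate 1 of day 3, and 0 counts in the other wild-type libraries of these days. FDY had 3.68 CPM in wild-type replicate 1 of day 5 and 5.41 CPM in that of day 9, against 0.296 to 0.885 CPM in the other 16 wild-type testis libraries. In replicate 1 of days 3, 5, 7 and 9 the correlation of the deviation of a gene with its length was -0.583 to -0.606.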
